A study of Homo sapiens with 24 samples.

Results

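The 4 human Y RNA genes, RNY1, RNY3, RNY4 and RNY5, were examined in HEK293 cells that overexpressed a nuclear lamin. They were taken as the rows of the small RNA table whose first name is one of these symbols and whose type is not lncRNA, which gave 4 of 175946 annotated features, 1 row per gene. The same rows were followed in the ATAC table, together with their flanks. HEK293 is an established line from human embryonic kidney, and the cells here came from ATCC and carry the genotype label wild type in every group. The control group overexpressed enhanced green fluorescent protein (eGFP, called GFP below), and the other groups overexpressed LMNA (LaminA in the treatment label), LMNB1 (LaminB1) or LMNB2 (LaminB2), whose products form the filament meshwork under the inner nuclear membrane. Each of the 4 groups had 3 replicates per assay, 24 libraries in all, from small RNA-seq of small-RNA-enriched total RNA and from ATAC-seq, which counts transposase insertions in accessible chromatin. The labels give no vector and no duration, and overexpression itself was not checked here. Nothing in the labels says that replicates came from separate cultures, so the p-values measure only the spread between these libraries, which may be technical. In bulk libraries fewer cells and less RNA per cell cannot be told apart.

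Y RNAs are short structured RNAs that RNA polymerase III (Pol III) transcribes from promoters lying upstream of the gene. They fold into a stem with an internal loop, bind the Ro60 protein through the lower stem and the La protein through the uridine-rich 3′ end, and were first found as partners of autoantigens in the sera of patients with lupus. In vertebrate cells their upper stem is required for the initiation of chromosomal DNA replication in cell-free assays, and fragments of Y RNAs, those of Y4 above all, are abundant in small RNA libraries. The loops differ among the genes: the Y1 and Y3 RNAs bind nucleolin, and Y5 is the shortest and the most divergent.

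All 4 genes lie on chromosome 7 within 45761 bp (GRCh38 positions, RefSeq gene models). RNY5 is at chr7:148941488-148941571 (84 nt), RNY4 at chr7:148963315-148963410 (96 nt) and RNY3 at chr7:148983755-148983856 (102 nt), all on the plus strand. RNY1 is at chr7:148987136-148987248 (113 nt) on the minus strand. Each is a single-exon gene whose whole length is the non-coding RNA. The gap between RNY5 and RNY4 is 21743 bp, that between RNY4 and RNY3 is 20344 bp, and RNY3 and RNY1 face each other with their 3′ ends, 3279 bp apart. The intervals that were counted begin 25 bp before each gene and reach 25 bp past it, or 20 bp past it for RNY5. The nearest counted interval of the long non-coding RNA GHET1 starts 254 bp beyond RNY1, on its upstream side. That interval had 0 to 6 small RNA counts per library.

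Other features annotated over the cluster held almost no reads of their own. The lncRNA interval lnc-CUL1-5 runs from RNY5 to RNY4, and at least 99.99% of its counts in every library equalled the sum of the RNY5 and RNY4 counts, leaving 6 to 15 counts. ENSG00000286171.1, a lncRNA interval around RNY5, held 0 to 8 counts beyond those of RNY5. Reads were therefore counted at every feature they overlap. Small RNA at this locus lay at the Y RNA genes.

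Small RNA libraries held 132507051 to 195074742 counts over all features and ATAC libraries 156043245 to 290158229 counts over the feature windows. The trimmed-mean (TMM) scaling factors of the small RNA libraries ran from 0.631 in GFP replicate 1 to 1.31 in GFP replicate 3, so these control libraries stood farthest apart and results that rest on them are given with and without them. The batch label does not vary within an assay. Mitochondrial features took 39.9 to 47.5% of the ATAC counts in GFP, 39.4 to 44.1% with LMNA, 32.8 to 34.1% with LMNB1 and 24.5 to 30.7% with LMNB2, and their part in the ATAC results is given by a fit without them.

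The Y RNAs were among the most counted small RNAs, and their order per kilobase of gene was the same in every library. Per kilobase of gene, RNY4 was highest, followed by RNY5, RNY1 and RNY3, in 12 of 12 libraries. By raw count the order differed in GFP replicate 3, where RNY1 had 75260 counts and RNY5 had 70331. The mean level over the 12 libraries was 10212 CPM (counts scaled to the TMM-adjusted library size) per kb for RNY4, 6333 for RNY5, 3462 for RNY1 and 1663 for RNY3. By count, RNY4 ranked 28, RNY5 53, RNY1 81 and RNY3 131 among the 3329 tested features that are not lncRNA. Raw counts were 104295 to 181500 per library for RNY4 and 19145 to 34074 for RNY3, so counting error was small beside the spread between replicates.

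**Figure D1:**
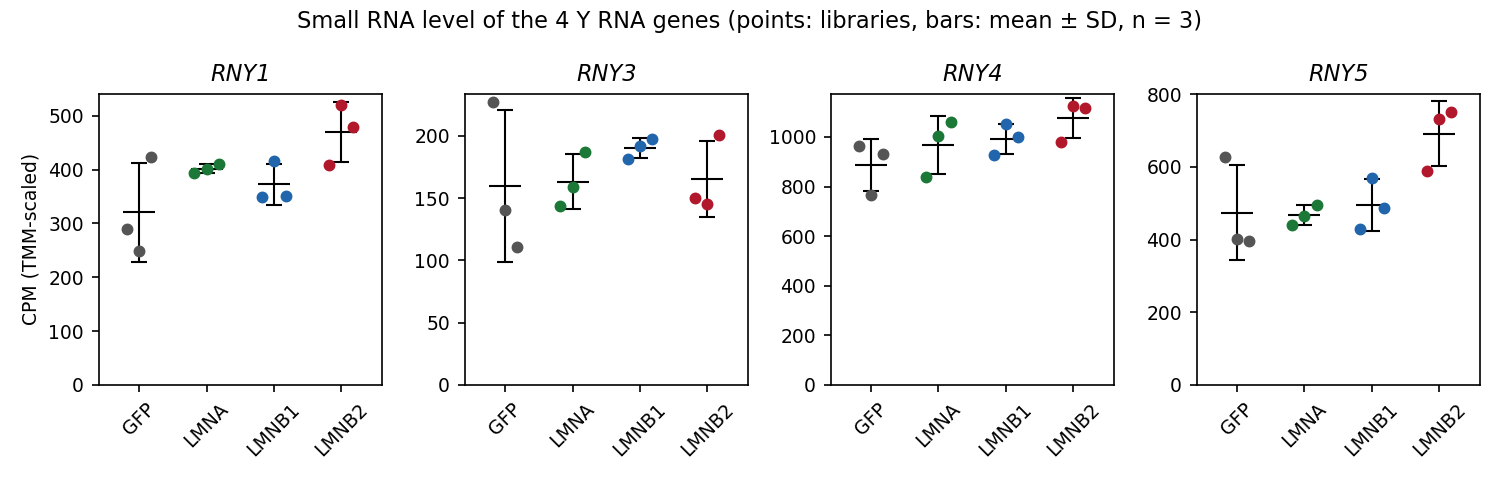
Small RNA level of each Y RNA gene (CPM, TMM-scaled, y axis from 0, own scale per panel) in the GFP, LMNA, LMNB1 and LMNB2 groups. Points are libraries in replicate order and bars are the mean ± SD (n = 3). For RNY1 and RNY5 the LMNB2 means, 470 and 691 CPM, lie above the GFP means of 321 and 475 CPM, and the GFP points are widely spread.

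RNY1, whose RNA binds Ro60 and nucleolin, had the highest mean with LMNB2. Its levels in replicates 1, 2 and 3 were 289.8, 249 and 424 CPM in GFP, 394, 401 and 409.9 CPM with LMNA, 349, 416 and 352 CPM with LMNB1, and 409, 521 and 479.7 CPM with LMNB2. GFP replicate 3 was above all LMNA and LMNB1 libraries and above 1 LMNB2 library, so the groups overlapped. Against GFP the log2 fold change was 0.55 ± 0.25 (SE) with LMNB2, for which edgeR's quasi-likelihood test gave a Benjamini-Hochberg adjusted p of 0.228. It was 0.33 ± 0.25 with LMNA (adjusted p = 0.920 by edgeR's quasi-likelihood test) and 0.21 ± 0.25 with LMNB1 (adjusted p = 0.905).

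RNY5 encodes the shortest of the 4 RNAs. It measured 627, 401 and 396 CPM in GFP, 440.1, 466 and 496 CPM with LMNA, 429, 569 and 487 CPM with LMNB1, and 588, 733 and 752 CPM with LMNB2. All LMNB2 libraries were above all LMNA and all LMNB1 libraries, while GFP replicate 1 fell inside the LMNB2 range. The log2 fold change of LMNB2 was 0.54 ± 0.25 against GFP (adjusted p = 0.244), 0.56 ± 0.25 against LMNA (adjusted p = 0.277) and 0.48 ± 0.25 against LMNB1 (adjusted p = 0.367), by edgeR's quasi-likelihood test. With LMNA and LMNB1 the differences from GFP were -0.02 and 0.06.

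RNY4, the most abundant of the 4, varied least. It measured 963, 766 and 929 CPM in GFP, 838, 1005 and 1061 CPM with LMNA, 929, 1051 and 998 CPM with LMNB1, and 982, 1126 and 1117 CPM with LMNB2. The LMNB2 libraries were all above the GFP libraries, as was so for 12.1% of all tested features, and the log2 fold change was 0.28 ± 0.23 (edgeR's quasi-likelihood test, adjusted p = 0.540). Its highest level over the 12 libraries was 1.47 times its lowest, against 1.90 times for RNY5, 2.05 times for RNY3 and 2.09 times for RNY1.

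RNY3, the least abundant, had nearly equal means in GFP and LMNB2. It measured 228, 141 and 111 CPM in GFP, 144, 159 and 187 CPM with LMNA, 181, 192 and 198 CPM with LMNB1, and 150.3, 146 and 201 CPM with LMNB2. The GFP libraries spanned the values of all other groups, with the highest and the lowest of the 12. The log2 fold changes against GFP were 0.03 with LMNA, 0.25 with LMNB1 and 0.05 with LMNB2, each with an SE of 0.27 (adjusted p = 0.998, 0.898 and 0.938 by edgeR's quasi-likelihood test).

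None of the 4 genes passed an adjusted p of 0.05 in any comparison with GFP. By edgeR, 0 of 4 were called with LMNA, where 0.0% of all tested small RNA features were called, 0 of 4 with LMNB1 (0.0384% of all) and 0 of 4 with LMNB2 (2.66% of all), and DESeq2 also called 0 in each. At an unadjusted p under 0.05 the counts were 0, 0 and 2 of 4 (RNY1 and RNY5), beside 5.46%, 5.51% and 19.9% of all tested features. Between lamins, 0 of 4 were called for LMNB1 against LMNA (0.0118% of all), LMNB2 against LMNA (2.01%) and LMNB2 against LMNB1 (2.19%), with 1 unadjusted p under 0.05 in these 12 tests (RNY5, LMNB2 against LMNA), beside 5.74%, 16.4% and 16.0% of all features. The RNY5 separation of LMNB2 from LMNA and from LMNB1 had a background of 14.6% and 15.6% of tested features with all libraries above. A joint test over the 4 groups called 0 of 4 (1.68% of all), with adjusted p between 0.410 and 0.889. The 95% intervals of the 12 comparisons with GFP together reached from 0.681-fold to 2.11-fold.

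The LMNB2 comparison turned on single control libraries. Without GFP replicate 3, RNY1 was called higher with LMNB2 (log2 fold change 0.85, adjusted p = 0.0121 by edgeR's quasi-likelihood test), also in the joint test (adjusted p = 0.0333). Without GFP replicate 1, RNY5 was called higher (0.78, adjusted p = 0.0319). The direction with LMNB2 was upward for RNY1, RNY4 and RNY5 under every scaling, filter and left-out library that was run, whereas RNY3 went from -0.11 to 0.38 when libraries were left out. Fits restricted to the 6 libraries compared also made calls: RNY5 was higher with LMNB2 than with LMNA (0.55, adjusted p = 0.00595), and RNY5 (0.48, adjusted p = 0.00262) and RNY1 (0.33, adjusted p = 0.0159) were higher with LMNB2 than with LMNB1. The share of all features called in these refits is not given here, so their calls have no background beside them. In the fit of all 12 libraries that share was 2.66%, 2.01% and 2.19% for LMNB2 against GFP, LMNA and LMNB1.

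**Figure D2:**
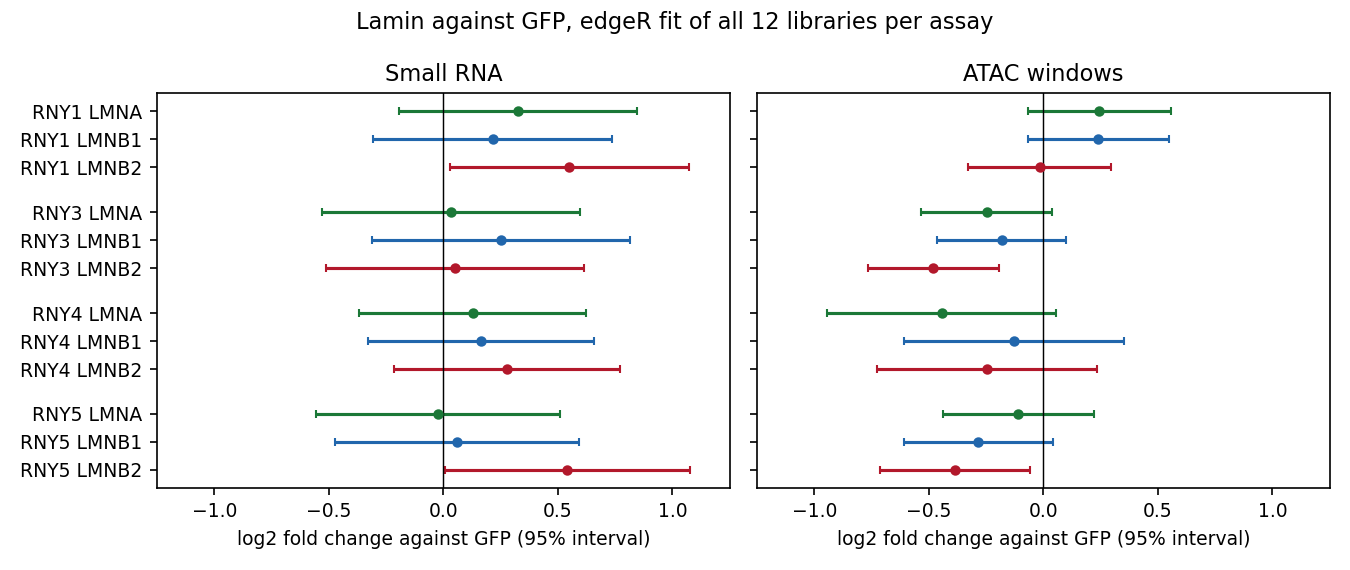
Log2 fold change of each Y RNA gene against GFP for LMNA, LMNB1 and LMNB2, from edgeR fits of 12 libraries per assay, with small RNA at the left and ATAC windows at the right; bars are 95% intervals. In small RNA only the LMNB2 intervals of RNY1 and RNY5 leave 0 out, and in ATAC only the LMNB2 intervals of RNY3 and RNY5 do.

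The balance among the 4 RNAs was also compared, since shares within a library need no scaling between libraries. RNY4 made up 48.3% ± 2.28 (SD, n = 3) of the summed counts of the 4 genes in GFP, 48.3% ± 1.87 with LMNA, 48.5% ± 1.13 with LMNB1 and 44.8% ± 1.16 with LMNB2. RNY5 made up 25.6% ± 4.23, 23.4% ± 0.733, 24.1% ± 1.42 and 28.7% ± 0.964 in the same order. With LMNB2 the RNY4 share was below, and the RNY5 share above, that of every LMNA and LMNB1 library, while GFP overlapped LMNB2 in both. The 4 shares add up to the whole, so these are not separate observations. By level, 14.6% and 15.6% of single tested features had all LMNB2 libraries above all LMNA and all LMNB1 libraries. A background for shares, or for the downward direction, is not given here, so how common such separations of shares are is not known. Wilson 95% intervals of single shares were at most 0.426 percentage points wide, which covers counting error only, since reads are not independent molecules.

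By group mean, RNY3 held the smallest share and RNY1 the next. In GFP replicate 3 the RNY1 share, 22.8%, was above the RNY5 share, 21.3%. The RNY3 share was 8.60% ± 2.45 in GFP, 8.14% ± 0.466 with LMNA, 9.31% ± 0.605 with LMNB1 and 6.90% ± 1.07 with LMNB2. The RNY1 share was 17.5% ± 4.71, 20.2% ± 1.39, 18.2% ± 0.754 and 19.5% ± 0.950. The GFP libraries were the most spread in all 4 shares.

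The ratio of RNY5 to RNY3 counts set LMNB2 apart from the other groups. It was 2.75, 2.85 and 3.58 in GFP, 3.06, 2.93 and 2.65 with LMNA, 2.37, 2.97 and 2.46 with LMNB1, and 3.91, 5.04 and 3.74 with LMNB2. The 3 LMNB2 libraries were above the other 9. This ratio was picked from the 6 possible pairs after the values were seen, so it is a description without a test. The summed level of the 4 genes, 2129 to 2549 CPM with LMNB2, was likewise above the GFP range of 1557 to 2106 CPM and overlapped the LMNA and LMNB1 ranges. Of single tested features, 12.1% had all LMNB2 libraries above all GFP libraries.

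Within GFP, the balance of RNY1 and RNY3 varied widely between replicates. The ratio of RNY1 to RNY3 counts was 1.27, 1.77 and 3.83 in GFP replicates 1, 2 and 3, which covers the ratios of all 9 lamin libraries (1.78 to 3.58). Over the 12 libraries, Pearson's r of log2 CPM was -0.16 between RNY1 and RNY3, 0.75 between RNY1 and RNY4, 0.75 between RNY4 and RNY5, 0.50 between RNY1 and RNY5, 0.47 between RNY3 and RNY5 and 0.41 between RNY3 and RNY4. These points share libraries and scaling, and they are given as description.

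**Figure D3:**
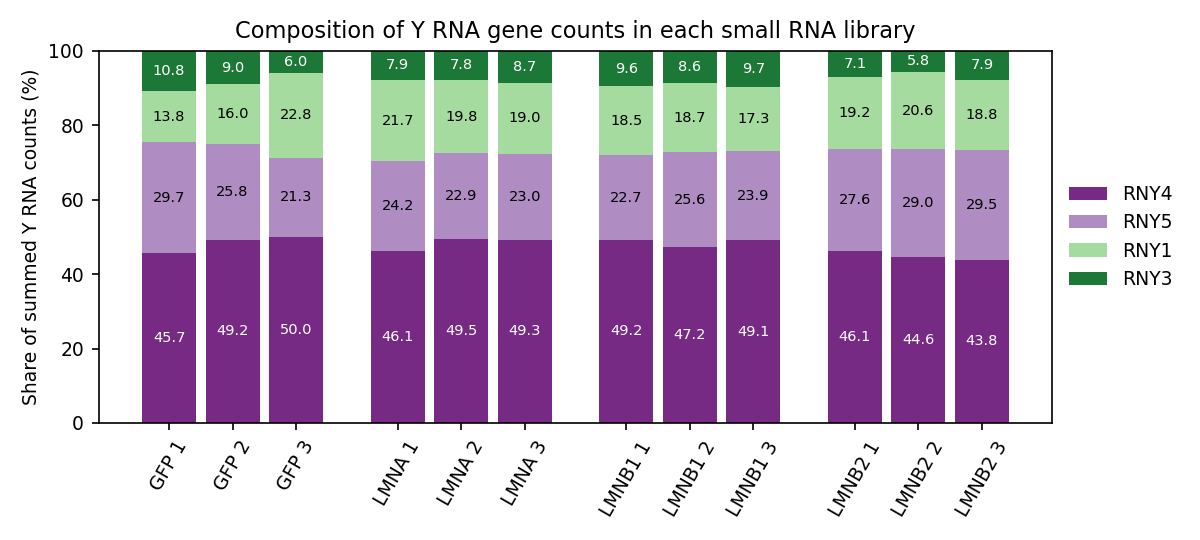
Share of each Y RNA gene (%, stacked to 100) in the summed small RNA counts of the 4 genes, 1 bar per library, grouped as GFP, LMNA, LMNB1 and LMNB2. RNY5 is 27.6 to 29.5% in the LMNB2 bars and 22.7 to 25.6% in the LMNA and LMNB1 bars, and the RNY3 share runs from 5.95 to 10.8% among the GFP bars.

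Other features that resemble Y RNAs bear on what these counts hold. The table has 867 further features of type Y_RNA, none overlapping the 4 genes, and the 4 genes held 52.7% of the counts of all Y_RNA features. The most counted of these copies, at chr3:157153523-157153665, averaged 84562 counts per library, more than the 61466 of RNY1, and its level followed that of RNY1 with Pearson's r = 0.95 over 12 libraries, the highest among 1689 features compared. How reads that map to several places were counted is not given in the sources used here, so the split of counts between a gene and copies that may share its sequence is uncertain, and no sequences were compared. Of the copies, 274 passed the count filter, and edgeR called 0 of them with LMNA, 0 with LMNB1 and 7 with LMNB2 (2 higher and 5 lower), beside 0.0%, 0.0384% and 2.66% of all tested features, with median log2 fold changes of -0.03, -0.10 and -0.24 beside -0.05, -0.05 and -0.04 for all features. The narrower list of 111 features named RNY pseudogene or Y_RNA had 49 tested members, of which 1 was lower with LMNB2 and none passed in the other comparisons.

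The features most like each gene over the 12 libraries were named among features that are not lncRNA, share no base with it and average at least 100 counts. For RNY3 they were a 5S rRNA copy (r = 0.91) and a pair of Y RNA copies (0.89 and 0.88). For RNY4 they were a pair of Y RNA copies (0.94 and 0.93) and SNORD111B (0.90), and for RNY1, after its copy, the box C/D small nucleolar RNAs SNORD15A (0.90) and SNORD14A (0.89). For RNY5 they were MIR1248 and SNORA81, which overlap each other and had near-equal counts (both 0.93), and the 5.8S rRNA gene RNA5-8SN1 (0.92). No Y RNA copy was among the 3 features named for RNY5.

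Genes with the same kind of upstream Pol III promoter were taken as a list of 9, including RN7SK, RMRP, RPPH1 and the U6 genes. Of these, 7 names were matched, giving 13 tested features, and 0 rose and 0 fell in each comparison with GFP in either assay. Their median small RNA log2 fold changes were 0.15 with LMNA, -0.29 with LMNB1 and -0.10 with LMNB2. Most of these features were U6 rows (6 of RNU6-1, 2 of RNU6-9 and 1 of RNU6-7), so the medians mostly reflect U6. With LMNB1 and LMNB2, RN7SK had 0.26 and 0.09, RMRP -0.09 and 0.15, RPPH1 0.10 and 0.17, and RNU6ATAC -0.17 and -0.25. A second list held 7 other short Pol III RNAs, all tested, of which 0 rose and 0 fell, with medians of 0.03, 0.15 and -0.19. With LMNB2, RN7SL1, the RNA of the signal recognition particle, had a log2 fold change of 0.60 ± 0.21 (adjusted p = 0.121) and the vault RNA VTRNA2-1 one of -0.95 ± 0.28 (adjusted p = 0.0745), by edgeR's quasi-likelihood test. The medians of the 4 Y RNA genes were 0.08, 0.19 and 0.41.

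Per base, chromatin at the Y RNA genes was more accessible than at most annotated features, but less than at most of the other Pol III genes listed with a single row. Counted over a window reaching 125 bp beyond the counted interval on each side, each gene had 49 to 303 ATAC counts per library. Per base, the RNY3 window was at percentile 96.4 of all tested windows, RNY1 at 96.1, RNY5 at 94.9 and RNY4 at 90.6. Most tested windows are of lncRNA intervals, and windows differ in length. Among the 12320 tested windows that are not lncRNA, RNY3 ranked 1950, RNY1 1968, RNY5 2115 and RNY4 2377 by CPM per window. In GFP the ATAC level per kb of window was 2.83 ± 0.301 CPM for RNY3, 2.12 ± 0.504 for RNY1, 2.04 ± 0.0831 for RNY5 and 1.04 ± 0.262 for RNY4 (SD, n = 3). RN7SK had 14.8 ± 1.82, RMRP 14.4 ± 1.35, RPPH1 17.7 ± 2.09 and VTRNA1-2 15.1 ± 1.91 CPM per kb on the same scale, and the other single-row genes of the lists, apart from the next pair, had 8.03 to 13.4 CPM per kb. RNU6-7, a U6 gene with the same promoter type, at 2.28 ± 0.541, and BCYRN1, at 2.57 ± 0.521, were in the range of the Y RNA genes. The U6 genes with several rows were left out of this comparison. Per window, their GFP means ran from 0.0320 to 0.993 CPM over the RNU6-1 rows and were 1.41 and 5.94 CPM for RNU6-9. The Y RNA windows had 0.413 to 1.14 CPM, so the RNU6-1 windows were not above the Y RNA range.

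The order of accessibility was not the order of RNA. RNY4, with the most small RNA, had the lowest ATAC level per kb in 12 of 12 libraries. The highest was RNY1 in 7 libraries and RNY3 in 5, and the levels of these windows overlapped in GFP.

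**Figure D4:**
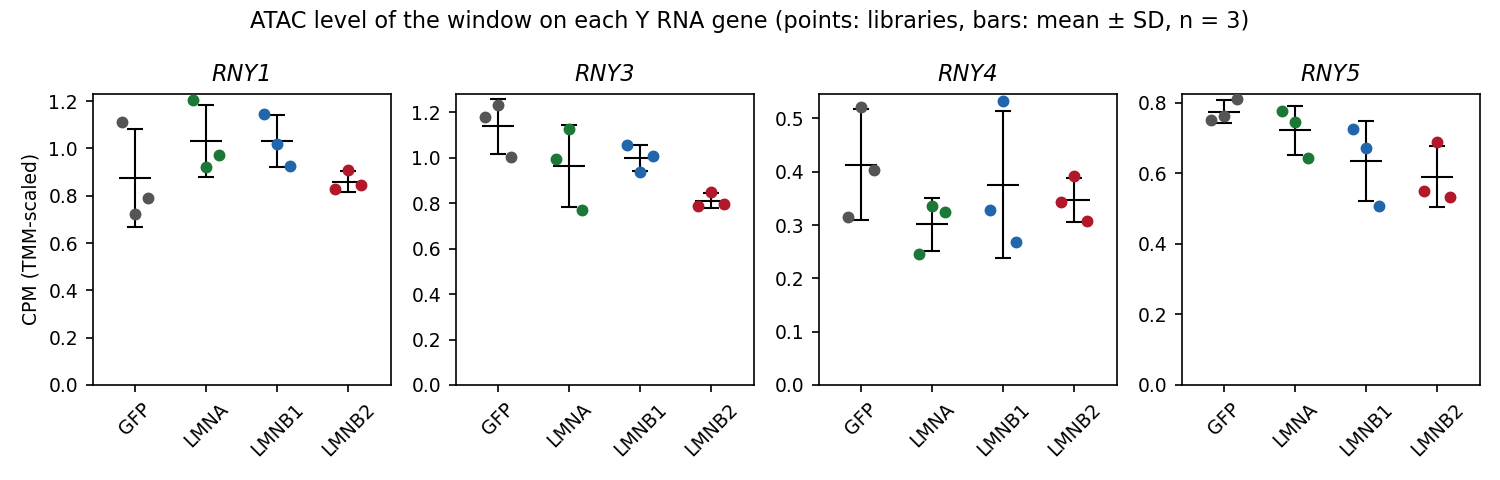
ATAC level of the window on each Y RNA gene (CPM, TMM-scaled, y axis from 0, own scale per panel) in each group. Points are libraries in replicate order and bars are the mean ± SD (n = 3). The LMNB2 points of RNY3, 0.788 to 0.849 CPM, lie below all GFP and LMNB1 points.

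RNY3 had the largest fold change of the 12 ATAC comparisons of these genes with GFP. It measured 1.18, 1.23 and 1.00 CPM in GFP, 0.995, 1.13 and 0.771 CPM with LMNA, 1.05, 0.94 and 1.01 CPM with LMNB1, and 0.788, 0.849 and 0.796 CPM with LMNB2. The LMNB2 libraries were below every GFP library, as was so for 4.72% of all tested windows. The log2 fold change was -0.48 ± 0.14 (95% interval -0.77 to -0.19), and the adjusted p was 0.815 by edgeR's quasi-likelihood test over 163786 windows. It was -0.25 ± 0.14 with LMNA and -0.18 ± 0.14 with LMNB1 (adjusted p = 0.974 and 0.977), and LMNB2 was also below LMNB1 (-0.30 ± 0.14, adjusted p = 0.975). Without mitochondrial features the LMNB2 value was -0.48 (adjusted p = 0.866).

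RNY5 had a smaller difference in the same direction. It measured 0.751, 0.762 and 0.81 CPM in GFP, 0.775, 0.745 and 0.644 CPM with LMNA, 0.727, 0.67 and 0.508 CPM with LMNB1, and 0.549, 0.688 and 0.532 CPM with LMNB2. All LMNB1 and all LMNB2 libraries were below all GFP libraries, where 3.84% and 4.72% of all tested windows were. The log2 fold changes were -0.28 ± 0.16 with LMNB1 (adjusted p = 0.977) and -0.39 ± 0.16 with LMNB2 (adjusted p = 0.862), by edgeR's quasi-likelihood test, and -0.11 with LMNA. In the same LMNB2 comparison the RNY5 small RNA value was 0.54, of the opposite sign, from separate libraries.

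The RNY1 and RNY4 windows did not separate from GFP with any lamin. RNY1 measured 1.11, 0.721 and 0.79 CPM in GFP, 1.21, 0.922 and 0.971 CPM with LMNA, 1.14, 1.02 and 0.925 CPM with LMNB1, and 0.828, 0.909 and 0.844 CPM with LMNB2, with log2 fold changes of 0.24, 0.24 and -0.02. Its LMNB2 libraries were below all LMNA and all LMNB1 libraries, beside 8.49% and 5.24% of all windows. RNY4 measured 0.316, 0.522 and 0.403 CPM in GFP, 0.245, 0.336 and 0.324 CPM with LMNA, 0.328, 0.532 and 0.268 CPM with LMNB1, and 0.342, 0.391 and 0.308 CPM with LMNB2, with log2 fold changes of -0.45 ± 0.24, -0.13 and -0.25 and overlap in all 3.

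In the ATAC windows 0 of 4 genes passed an adjusted p of 0.05 with LMNA (0.000611% of all windows), LMNB1 (0.00305%) or LMNB2 (0.00244%) by edgeR, and 0 by DESeq2. At an unadjusted p under 0.05 the counts were 0, 0 and 2 of 4 (RNY3 and RNY5), beside 5.19%, 4.78% and 5.72% of all windows. Between lamins 0 of 4 were called for LMNB1 against LMNA (0.223% of all), LMNB2 against LMNA (0.00305%) and LMNB2 against LMNB1 (0.00305%), with 1 unadjusted p under 0.05 in 12 tests (RNY3, LMNB2 against LMNB1), beside 5.37%, 7.17% and 4.98% of all windows, and the joint test over the 4 groups called 0 (0.0421% of all). The median log2 fold changes of the 4 genes were -0.18, -0.16 and -0.32 with LMNA, LMNB1 and LMNB2, and that of all windows was 0.00 in each. The 12 intervals against GFP together reached from 0.520-fold to 1.47-fold.

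The flanks were counted in windows of 500, 5000 and 50000 bp per side that begin 350 bp outside the gene window, so the 500 bp flank covers the bases about 500 to 1000 bp from the gene. In the 500 bp flanks, but not in the 5000 bp flanks, accessibility was higher on the upstream side at RNY1 and RNY3. At RNY1 the upstream 500 bp flank, which lies inside GHET1, had 3.75 to 6.13 times the counts of the downstream flank, and at RNY3 the upstream flank had 4.61 to 10.9 times those of the downstream flank. RNY4 had 1.46 to 2.37 times. In these 3 genes the upstream 500 bp flank was higher in 12 of 12 libraries, as it was for 28.9% of all features. At 5000 bp the order was the reverse. In GFP the upstream and downstream flanks had 0.398 and 0.888 CPM per kb at RNY1, 0.317 and 1.136 at RNY3, and 0.167 and 0.631 at RNY4. RNY5 had near-equal flanks (0.783 to 1.35 times), and its window had fewer counts per base than the 500 bp flanks in every library, 0.598 to 0.956 times, whereas the windows of the other 3 genes were above the mean of their 2 flanks in every library. The RNY1 window was above that mean but below its upstream flank alone, 2.12 against 2.71 CPM per kb in GFP. The upstream flank of RNY5 lies in the annotated lncRNA ENSG00000286180.1 and the downstream one in lnc-CUL1-5.

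**Figure D5:**
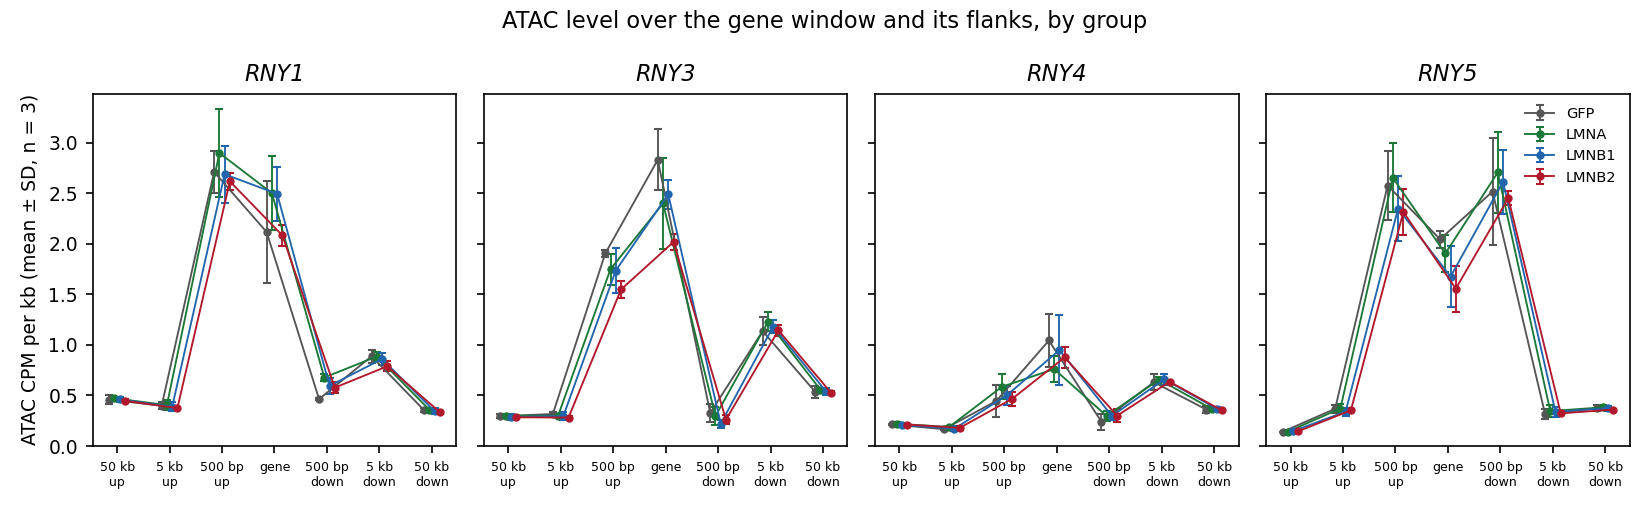
ATAC level per kb (CPM on the scale of the gene windows, mean ± SD, n = 3) over the gene window and over upstream and downstream flanks of 500 bp, 5 kb and 50 kb, drawn in the direction of each gene. The wider flanks contain the narrower ones. RNY1 and RNY3 are higher upstream than downstream at 500 bp and lower upstream than downstream at 5 kb. RNY5 dips at the gene between high 500 bp flanks. RNY4 is the lowest of the 4 at the gene, but its 5 kb downstream flank, 0.631 CPM per kb in GFP, is above both 5 kb flanks of RNY5 (0.369 and 0.320).

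At RNY1 the ratio of upstream to downstream flank was higher in GFP than with each lamin. It was 5.95, 6.13 and 5.45 in GFP, 4.32, 4.72 and 3.75 with LMNA, 4.78, 4.13 and 4.69 with LMNB1, and 5.11, 4.24 and 4.32 with LMNB2. Every lamin library was below every GFP library, beside 4.85%, 5.30% and 5.45% of all features for the 3 lamins, and the exact two-sided permutation test gave p = 0.1 for each, the smallest that 3 libraries against 3 allow. The 3 comparisons share the GFP libraries. The level behind it was that of the downstream flank, 0.464 ± 0.008 CPM per kb in GFP and 0.678 ± 0.035, 0.595 ± 0.076 and 0.578 ± 0.054 with LMNA, LMNB1 and LMNB2, while the upstream flank was 2.71 ± 0.206 in GFP and 2.62 to 2.90 with the lamins. That downstream flank held only 37 to 95 counts per library, with 37, 40 and 44 in GFP. The GFP SD is below the counting error of such counts, so it understates the uncertainty. Of the 12 such comparisons over the 4 genes, RNY4 with LMNB2 (1.58 against 1.85) also had no overlap, and this ratio was looked at after the profiles were seen.

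No flank of the 4 genes was called against GFP. At 500 bp the log2 fold changes ran from -0.27 to 0.36, at 5000 bp from -0.14 to 0.09 and at 50000 bp from -0.06 to 0.03, and edgeR called 0 of 4 in each, where 0.00185%, 0.0628% and 0.0665% of all 500 bp flanks, 0.00057%, 0.0245% and 0.081% of all 5000 bp flanks and 0.00455%, 0.0176% and 0.0353% of all 50000 bp flanks were called with LMNA, LMNB1 and LMNB2. The 500 bp flanks of RNY3 were lower with LMNB2 than in every GFP library (-0.27 ± 0.13, adjusted p = 0.843 by edgeR's quasi-likelihood test), as were 4.88% of all such flanks. This was the single unadjusted p under 0.05 in the flank tests, beside 5.85% of all 500 bp flanks in that comparison. The 5000 bp flanks of RNY1 and RNY3 hold each other's gene, and the 50000 bp flanks overlap along the cluster, so their values are not independent. The 95% interval at 50000 bp reached from 0.887-fold to 1.11-fold of GFP. The flanks of RNY1 and RNY3 at that size hold PDIA4, the coding gene of an endoplasmic reticulum protein disulfide isomerase.

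The window was also set against its own 5000 bp flanks within each library, which needs no scaling. At RNY3 the downstream flank includes RNY1 and part of GHET1. That side held 1002 of 1275, 983 of 1239 and 959 of 1255 flank counts in GFP replicates 1, 2 and 3. The RNY3 ratio is thus in large part one against that region. The mean ratio per base was 5.22 for RNY5, 3.69 for RNY1, 3.32 for RNY3 and 2.23 for RNY4, and the median over all windows was 1.06. For RNY3 the ratio was 3.66, 4.22 and 3.85 in GFP, 3.13, 3.57 and 2.69 with LMNA, 3.45, 3.04 and 3.66 with LMNB1, and 2.62, 3.01 and 2.89 with LMNB2. The LMNA and LMNB2 libraries were all below GFP, beside 4.44% and 5.34% of all windows, by -0.33 and -0.46 on the log2 scale, each with p = 0.1 by the exact two-sided permutation test. These were the 2 of 12 comparisons without overlap (with LMNB1, 4.77% of all windows were all below GFP and none of the 4 genes was). With 500 bp flanks the RNY3 differences were -0.13 and -0.18 with overlap in both. There the RNY4 ratio was instead all below GFP with LMNA (-0.84) and LMNB2 (-0.42), each with p = 0.1 by the exact two-sided permutation test. Those RNY4 flanks held 39 to 132 counts per library. The gene that separated thus depended on the flank size. With 5000 bp flanks, leaving out GFP replicate 1 raised the number without overlap from 2 to 11. With fewer control libraries a lack of overlap arises more easily, and all comparisons share those that remain. The share of all windows in that setting is not given here.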

How the data were processed

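Small RNA-seq and ATAC-seq counts of the 4 Y RNA genes were compared among HEK293 groups. The authors deposited raw counts in a table per assay, holding whole numbers with unequal library totals. The build is GRCh38, per the submitters' processing notes. The aligner, strand use and treatment of multi-mapping reads are not given in the sources used here. Each of the 24 count columns matched 1 sample description, and groups came from the titles.

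For each assay, 1 model of all 12 libraries was fitted to the deposited counts with edgeR 4.0.16 under R 4.3.3, with filterByExpr, TMM scaling, robust quasi-likelihood dispersions and a mean per group. This left 33893 small RNA features, 163786 ATAC windows and 162320, 175313 and 175805 features for summed flanks of 500, 5000 and 50000 bp. Benjamini-Hochberg adjustment ran over all features of a fit, with calls at an adjusted p under 0.05. Log2 values used a prior count of 2, and CPM used TMM-scaled library sizes. Ratios of window to flank used a pseudocount of 0.5 count and an exact two-sided permutation test. Positions are counted from 1. RefSeq (GRCh38.p14) held a gene for 4 of 4 symbols. The scripts were tested on simulated data for LMNB2 against GFP. In small RNA, 18% of simulated 2-fold rises and 26% of falls to 0.5-fold were called, with 10 false among 121 calls. In ATAC windows, 100% and 94% were called, with 11 false among 208 calls. A lack of calls in small RNA therefore does not show that levels were unchanged.

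Alternatives were DESeq2 1.42.0, DESeq2 size factors, total counts, other count filters, no lncRNA or mitochondrial features, the replicate number as a block, only the 6 libraries compared, other flank sizes and leaving out each library. The named genes were the 4 genes, 2 lists of Pol III genes, Y RNA copies (taken also by type, a set added after the names were seen) and the 3 features most correlated with each gene. The members and lists were chosen with earlier results of these data known.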

Additional observations from a re-analysis of the deposited data

How the results depend on the processing

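Counts of called Y RNA genes changed in these cases. Without lncRNA features, RNY1 was called with LMNB2 in small RNA (1 gene, log2 fold change 0.66, adjusted p = 0.0496 by edgeR). Leaving out a library gave 0 to 1 called with LMNB2 against GFP and 0 to 1 in the joint test. Fits of only the 6 libraries compared called 1 gene for LMNB2 against LMNA and 2 for LMNB2 against LMNB1. For the fits named so far, the share of all features called is not given here. With total counts only, the 5000 bp flanks of 4 genes were called higher with LMNB1 and of 4 with LMNB2. The 50000 bp flanks of 4, 1 and 4 genes were called lower with LMNA, LMNB1 and LMNB2. Over all features and in either direction, 96552 (LMNB1) and 144473 (LMNB2) of 175313 flanks of 5000 bp were called with total counts. At 50000 bp, 115446, 27240 and 80251 of 175805 were called with LMNA, LMNB1 and LMNB2, so these calls were not particular to the Y RNA genes. Under that scaling the median log2 change was, over all 5000 bp flanks, 0.16, 0.41 and 0.51, over all 50000 bp flanks -0.16, -0.11 and -0.13, over small RNA features with LMNB1 and LMNB2 0.11 and 0.19 and over ATAC windows 0.09, 0.19 and 0.11, and the members' values moved with it. The ratio of window to flanks had 4 comparisons without overlap with 50000 bp flanks, and 2 to 11 when a library was left out, where a lack of overlap arises more easily. The cause of these changes was not tested.

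Directions reversed for small log2 fold changes. For small RNA with LMNA, RNY3 went to -0.12 without lncRNA features, and RNY5 to 0.053 with total counts, 0.036 with no filter and 0.015 with only the 6 libraries. For ATAC with total counts, RNY3 and RNY4 with LMNB1 went to 0.0079 and 0.068, RNY1 with LMNB2 to 0.083 and the RNY3 500 bp flank with LMNB2 to 0.10, and RNY1 with LMNB2 went to 0.010 without lncRNA features. Leaving out a library gave, for small RNA, -0.11 to 0.36 (RNY3, LMNA), -0.12 to 0.21 (RNY5, LMNA), -0.044 to 0.31 (RNY5, LMNB1) and -0.11 to 0.38 (RNY3, LMNB2), and for ATAC -0.46 to 0.066 (RNY4, LMNB1) and -0.13 to 0.18 (RNY1, LMNB2).

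The replicate numbers were not taken to pair samples, since only 2 of 18 same-numbered pairs in each assay had a correlation of deviations over 0.1 (range -0.04 to 0.23 in small RNA and -0.08 to 0.19 in ATAC). The best-correlated library had the same number for 8 of 12 small RNA and 6 of 12 ATAC libraries, a hint from the data and not from the design. With the replicate block 0 genes were called in every comparison. The ATAC windows held 49 to 303 counts per library, and the widest 95% intervals against GFP reached 0.520-fold and 1.47-fold there and 0.681-fold and 2.11-fold in small RNA.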
